A study of Sus scrofa with 12 samples.

Results

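ACP5, RBP4 and APOA1 encode 3 carrier proteins of histotroph, the secretion of the uterine glands that feeds the pig conceptus before and after attachment. They were followed here in the endometrium of 12 sows on Day 14 after insemination. The members were all probe sets to which the platform annotation gave one of these symbols as the only gene symbol, 4 of 23999 probe sets tested and 3 of 6765 genes with a symbol. ACP5 and APOA1 had 1 probe set each. RBP4 had a pair, a bright one, which stood for the gene, and a dim one. The build behind the array is not given in the sources used here, and genome positions are left out for that reason.

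The study compared 6 pregnant sows with 6 non-pregnant sows, which had received inactivated semen at insemination. Each state held 3 Yorkshire and 3 Landrace sows, which made 4 groups of 3: non-pregnant Yorkshire (sows 1, 3 and 11), pregnant Yorkshire (sows 2, 4 and 12), non-pregnant Landrace (sows 5, 7 and 9) and pregnant Landrace (sows 6, 8 and 10). The uterine horns were flushed before the mucosa was sampled without its muscle layer, and RNA of each sow was hybridised to 1 Affymetrix array. Values are log2 expression values, and a difference of 1 is a doubling of the signal.

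In the pig, whose placenta does not invade the uterine wall, nutrients reach the conceptus through the secretions of the uterine epithelium. Uteroferrin, the product of ACP5, is a purple acid phosphatase that carries iron, made in large amounts by glandular epithelium under progesterone, and the same gene marks macrophages and osteoclasts elsewhere in the body. RBP4 is the plasma carrier of retinol, secreted by liver and also by the uterine epithelium and the conceptus. APOA1 is the main protein of high-density lipoprotein and takes up cholesterol that cells export through the transporter ABCA1.

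ACP5 and RBP4 were low in the 3 non-pregnant Yorkshire sows and high in the other 9 sows, whether pregnant or not. APOA1 showed a smaller difference, and its groups overlapped more. Over both breeds together all 3 transcripts were higher in pregnant than in non-pregnant endometrium, ACP5 by 2.07-fold, RBP4 by 2.46-fold and APOA1 by 1.43-fold. In the non-pregnant state ACP5 and RBP4 were 2.99-fold and 4.25-fold higher in Landrace than in Yorkshire sows.

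ACP5 in the non-pregnant Yorkshire sows 1, 3 and 11 was at 11.51, 11.17 and 11.90. In the pregnant Yorkshire sows 2, 4 and 12 it was at 13.20, 13.41 and 13.07. All 3 pregnant Yorkshire sows lay above all 3 non-pregnant ones, with a wide gap between the groups. The non-pregnant Landrace sows 5, 7 and 9 had values of 13.08, 13.52 and 12.71, and the pregnant Landrace sows 6, 8 and 10 had 13.72, 13.01 and 13.77. The Landrace groups overlapped, since pregnant sow 8 lay below 2 of the 3 non-pregnant Landrace sows. The group means in ascending order were 11.53 ± 0.360 in non-pregnant Yorkshire, 13.11 ± 0.406 in non-pregnant Landrace, 13.23 ± 0.174 in pregnant Yorkshire and 13.50 ± 0.425 in pregnant Landrace (SD, n = 3 each). Of neighbours in this order, the first and second groups did not overlap, and the other neighbours overlapped.

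RBP4 had the widest range of the 3 transcripts. Its values in non-pregnant Yorkshire sows 1, 3 and 11 were 11.27, 9.83 and 11.13, and those in pregnant Yorkshire sows 2, 4 and 12 were 13.26, 13.23 and 12.54. Sow 3 was the lowest of all 12 sows for ACP5, RBP4 and APOA1 alike. Non-pregnant Landrace sows 5, 7 and 9 were at 12.92, 13.01 and 12.57, and pregnant Landrace sows 6, 8 and 10 were at 13.32, 12.86 and 13.31. All 3 non-pregnant Landrace sows lay above pregnant Yorkshire sow 12, the lowest of the pregnant sows. The group means were 10.74 ± 0.795, 12.83 ± 0.231, 13.01 ± 0.411 and 13.16 ± 0.262 (SD, n = 3 each), in the same order of groups as for ACP5.

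The dim probe set of RBP4 did not show this pattern. It lay between 5.36 and 5.87 in 11 sows and at 6.58 in non-pregnant Landrace sow 7, and its pregnancy difference was 0.04 ± 0.18 (SE, adjusted p = 0.939). With 1 sow left out this difference ranged from -0.04 to 0.23 and was not called. Without sows 7 and 12 together it was positive and called, as given below. On each array 10757 to 15496 probe sets were brighter than the dim probe set, which thus sat in the middle to lower part of the scale.

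APOA1 in non-pregnant Yorkshire sows 1, 3 and 11 was at 9.70, 9.41 and 9.98, and in pregnant Yorkshire sows 2, 4 and 12 at 10.34, 10.45 and 10.20. These groups did not overlap. In Landrace sows the non-pregnant values were 10.45, 9.76 and 10.12 in sows 5, 7 and 9, and the pregnant values 10.72, 10.19 and 10.62 in sows 6, 8 and 10. Sow 7, high in ACP5 and RBP4, was the lowest Landrace sow for APOA1 and lay within the range of the non-pregnant Yorkshire sows. The group means were 9.70 ± 0.281 in non-pregnant Yorkshire, 10.11 ± 0.343 in non-pregnant Landrace, 10.33 ± 0.123 in pregnant Yorkshire and 10.51 ± 0.284 in pregnant Landrace (SD, n = 3 each), and each overlapped its neighbour in this order.

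**Figure D1:**
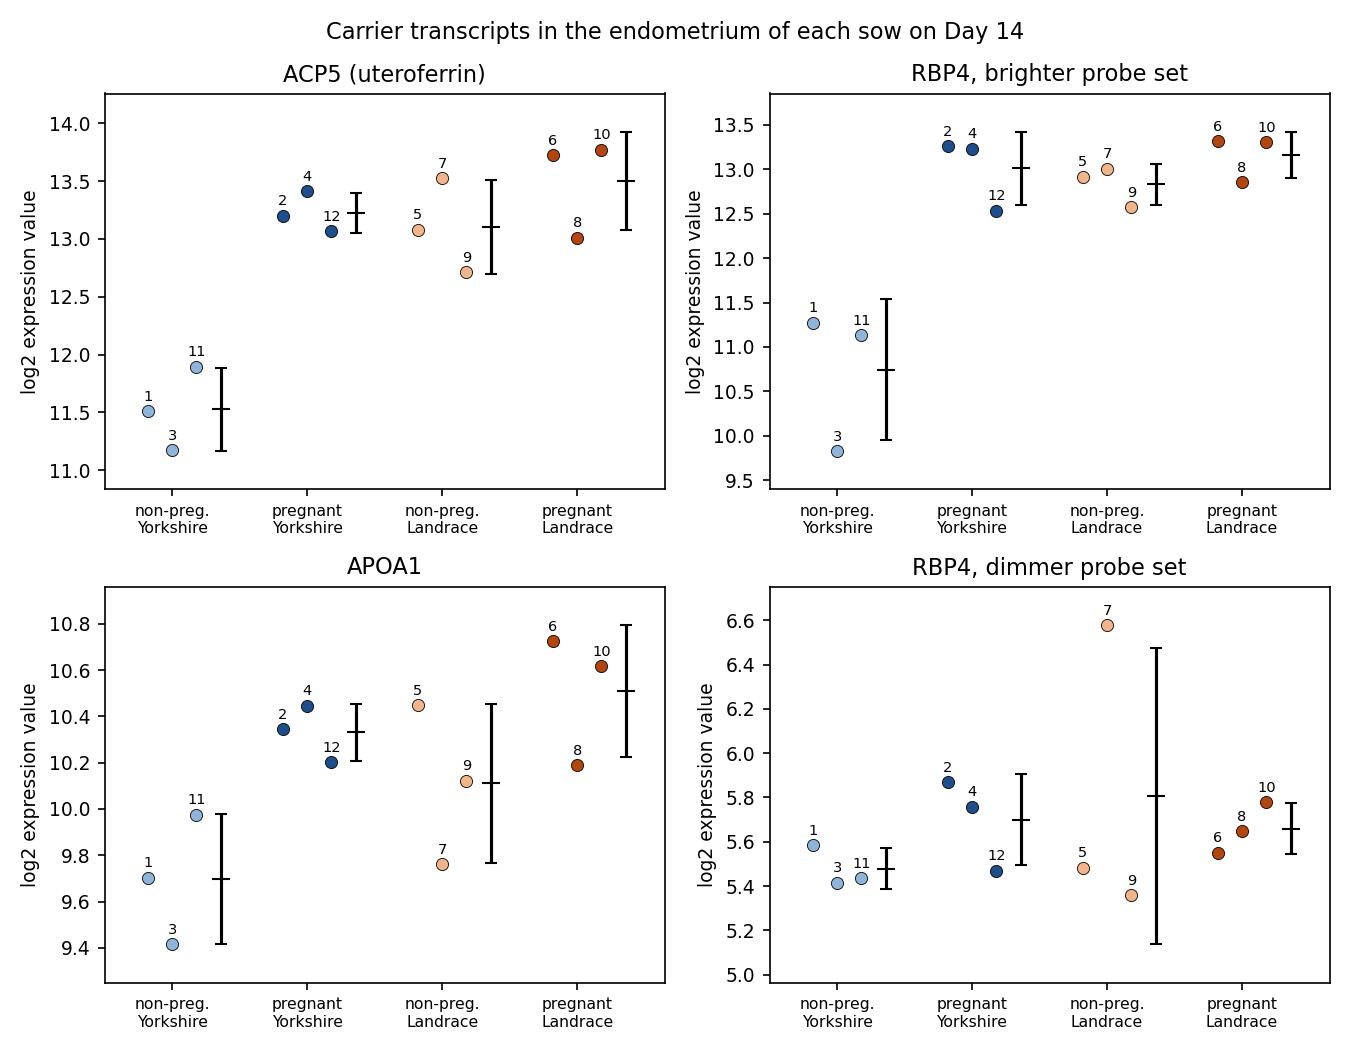
Log2 expression values (vertical axis) of ACP5, both RBP4 probe sets and APOA1 in the 4 groups (horizontal axis), 1 point per sow with its number; the bar beside each group is its mean ± SD (n = 3). ACP5 and the brighter RBP4 probe set are lowest in the 3 non-pregnant Yorkshire sows, and the vertical axes do not start at 0.

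The first question of the design was how pregnancy changed the endometrium over both breeds. ACP5 was higher in pregnant sows by 1.05 ± 0.25 (SE; 95% interval 0.49 to 1.60, adjusted p = 0.0287 from limma's moderated test), RBP4 by 1.30 ± 0.36 (0.51 to 2.08, adjusted p = 0.0476) and APOA1 by 0.52 ± 0.14 (0.21 to 0.82, adjusted p = 0.0421). The exact two-sided permutation test of pregnancy labels within breed gave p = 0.0150 for each of the 3, where the smallest p it can give is 0.005. By the threshold of an adjusted p under 0.05 all 3 members passed, and 4.58% of the 6765 genes were higher in pregnant sows by the same rule, with 7.48% lower. In whole tissue, a difference in the number of secreting cells and a difference in RNA per cell cannot be told apart.

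These calls lay close to the threshold. ACP5 missed it on leaving out any 1 of sows 1, 3 and 9 (non-pregnant) and 2, 4, 6 and 10 (pregnant), with adjusted p-values up to 0.0710. RBP4 kept it only when sow 7 or sow 8 was the one left out and missed it for each of the other sows, with adjusted p-values up to 0.109. APOA1 kept it on leaving out sow 5, 8, 11 or 12, and otherwise reached up to 0.0979. The sign was positive in all of these fits, and the differences ranged from 0.897 to 1.23 for ACP5, from 0.986 to 1.47 for RBP4 and from 0.440 to 0.604 for APOA1. Without the breed term in the model the same differences had adjusted p-values of 0.114, 0.134 and 0.0821.

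Within Yorkshire, pregnant minus non-pregnant was 1.70 ± 0.26 for ACP5 (95% interval 1.14 to 2.26, adjusted p = 0.0585), 2.27 ± 0.34 for RBP4 (1.52 to 3.01, adjusted p = 0.0585) and 0.63 ± 0.20 for APOA1 (0.19 to 1.07, adjusted p = 0.175). None of the 3 passed, and the background was 0%: limma called 0 of 23999 probe sets within Yorkshire, although 3667 had an unadjusted p under 0.05, and the variant with an intensity trend and a robust prior called 0 as well, with 3552. The smallest adjusted p of any probe set was 0.0557. All 3 members had every pregnant Yorkshire sow above every non-pregnant one, which 10.6% of all genes also had. The exact two-sided permutation test within 1 breed gave p = 0.1000 for each, the smallest that 3 sows against 3 allow. With array weights, which give arrays far from their group less influence, the adjusted p-values were 0.00261, 0.00260 and 0.0161. Without pregnant sow 12, whose array correlated most with that of non-pregnant sow 11 (r = 0.992 across probe sets), ACP5 differed by 1.78 (adjusted p = 0.00921) and RBP4 by 2.50 (adjusted p = 0.00525). Leaving out Landrace sow 7 or 8 leaves these differences as they are and changes the shared spread, and the adjusted p of ACP5 was then 0.0385 or 0.0306 and that of RBP4 0.0494 or 0.0437. How many of all probe sets passed with array weights or with 1 sow left out was not counted. These passes therefore have no background share beside them.

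Within Landrace the differences were 0.40 for ACP5 (95% interval -0.17 to 0.96, adjusted p = 0.520), 0.33 for RBP4 (-0.42 to 1.07, adjusted p = 0.737) and 0.40 for APOA1 (-0.04 to 0.84, adjusted p = 0.372). None passed, and 0.813% of genes were higher in pregnant Landrace sows by the same rule. No member separated the pregnant from the non-pregnant Landrace sows. The share of all genes that did so was not counted, so this is no trait particular to the carriers.

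The pregnancy difference in Landrace minus that in Yorkshire was -1.30 ± 0.36 for ACP5 (95% interval -2.10 to -0.51), -1.94 ± 0.48 for RBP4 (-2.99 to -0.88) and -0.23 ± 0.28 for APOA1 (-0.85 to 0.39). Taken alone, the intervals of ACP5 and RBP4 leave out 0. After adjustment over all probe sets the p-values were 0.9996, 0.961 and 0.9996, so a breed dependence of the pregnancy difference was not called for any of the 3. The background was 0% here too: limma called 0 probe sets for the interaction, 963 had an unadjusted p under 0.05, and the trend and robust variant called 0 with 942.

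**Figure D2:**
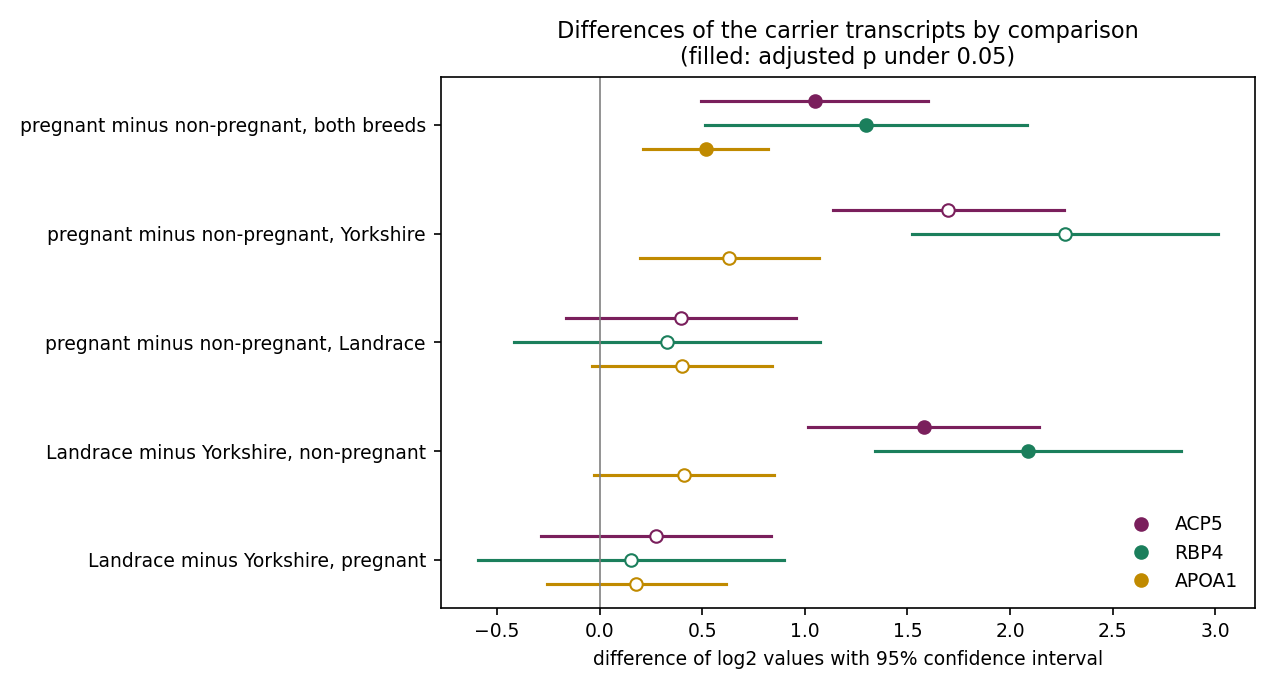
Difference of log2 values (horizontal axis) with its 95% confidence interval for ACP5, RBP4 and APOA1 in 5 comparisons (vertical axis); filled points have an adjusted p under 0.05. ACP5 and RBP4 lie to the right of 0 in the comparisons that involve the non-pregnant Yorkshire sows, and their intervals include 0 in the other comparisons.

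The breeds differed in the non-pregnant state. Landrace exceeded Yorkshire by 1.58 ± 0.26 for ACP5 (95% interval 1.02 to 2.14, adjusted p = 0.0174) and by 2.09 ± 0.34 for RBP4 (1.34 to 2.83, adjusted p = 0.0177), and both passed. APOA1 differed by 0.41 ± 0.20 (-0.03 to 0.85, adjusted p = 0.388). By this rule 0.429% of genes were higher and 0.798% lower in non-pregnant Landrace sows. Every non-pregnant Landrace sow lay above every non-pregnant Yorkshire sow for ACP5 and RBP4, as for 9.45% of genes. All 3 non-pregnant Yorkshire sows lay below all 9 others for ACP5 and RBP4, as for 2.37% of genes. ACP5 missed the threshold without non-pregnant sow 1, 3, 5 or 7 (adjusted p up to 0.0672) and RBP4 without sow 5 or 7 (up to 0.0692).

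In pregnant sows the Landrace minus Yorkshire difference was 0.27 for ACP5 (95% interval -0.29 to 0.83, adjusted p = 0.750), 0.15 for RBP4 (-0.59 to 0.90, adjusted p = 0.919) and 0.18 for APOA1 (-0.26 to 0.62, adjusted p = 0.803). None passed, against 0.148% of genes higher in pregnant Landrace sows. Over both states together the breed differences were 0.93 for ACP5 (adjusted p = 0.0575), 1.12 for RBP4 (0.0978) and 0.30 for APOA1 (0.259), and none passed where 2.03% of genes were higher in Landrace.

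A measure of RNA or labelling quality also moved with breed and, in Landrace sows, with pregnancy. The control probe sets at the 3' end of GAPDH exceeded those at its 5' end by 0.700 to 0.981 in non-pregnant and 0.786 to 0.955 in pregnant Yorkshire sows, and by 0.441 to 0.557 in non-pregnant and 0.567 to 0.658 in pregnant Landrace sows. The Yorkshire groups overlapped in this measure and were separate in ACP5, RBP4 and APOA1. Every pregnant Landrace sow lay above every non-pregnant one in this measure, while the Landrace groups overlapped in the 3 carriers. Its part in the breed and pregnancy differences was not tested. The brightest probe set of each array was at 14.18 to 14.31, so the highest ACP5 values, near 13.77, lay close to the top of the scale, and whether the scale is compressed there was not tested.

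The genes whose values ran most closely with each carrier over the 12 sows were named by Pearson's r, as a description; the 12 points share the 4 groups, so a gene that is low in non-pregnant Yorkshire sows gives a high r. The closest to ACP5 was UABP-2 (r = 0.974), one of the uteroferrin-associated basic proteins, serpins of the uterine secretion that were isolated bound to uteroferrin. MEP1B, the beta subunit of the membrane metalloprotease meprin, followed with r = 0.963, then the metalloprotease inhibitor TIMP2 (0.962), RBP4 itself (0.959) and the tyrosine kinase FYN (0.944). For RBP4 the list was TIMP2 (0.962), ACP5 (0.959), the small GTPase RAB24 (0.954), MEP1B (0.945) and UABP-2 (0.943), so that 3 genes beside the carriers themselves stood on both lists. APOA1 ran closest with MEP1B (0.899), the protease inhibitor SPINT2 (0.899), ITM2A (0.897), RNF128 (0.891) and the G protein subunit GNAI1 (0.891), and it ranked 130th for ACP5 (r = 0.806) and 70th for RBP4 (r = 0.821).

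UABP-2 was at 7.08, 5.69 and 7.87 in non-pregnant Yorkshire sows 1, 3 and 11, and at 11.34, 11.25 and 9.88 in pregnant Yorkshire sows 2, 4 and 12. In Landrace it was at 11.64, 12.75 and 9.25 in non-pregnant sows 5, 7 and 9 and at 12.52, 10.52 and 12.33 in pregnant sows 6, 8 and 10. It ran over a far wider range than uteroferrin, and the highest value of all belonged to non-pregnant sow 7. With the 4 group means subtracted, ACP5 and UABP-2 had r = 0.932 over the 12 sows. This r is a description too, because UABP-2 was picked on the same 12 values.

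Since these genes were picked for running with the carriers, their differences are given without a test. Pregnant minus non-pregnant was 2.26 for UABP-2, 1.20, 1.41 and 1.23 for the 3 probe sets of MEP1B, and 0.96 and 0.84 for the brighter and dimmer probe sets of TIMP2. The gene that ran most strongly against RBP4 was CCK, the peptide hormone cholecystokinin (r = -0.978), singled out after its values were seen. CCK was at 8.13, 9.92 and 8.53 in non-pregnant Yorkshire sows 1, 3 and 11 and between 5.03 and 6.81 in the other 9 sows, opposite in direction to the carriers.

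**Figure D3:**
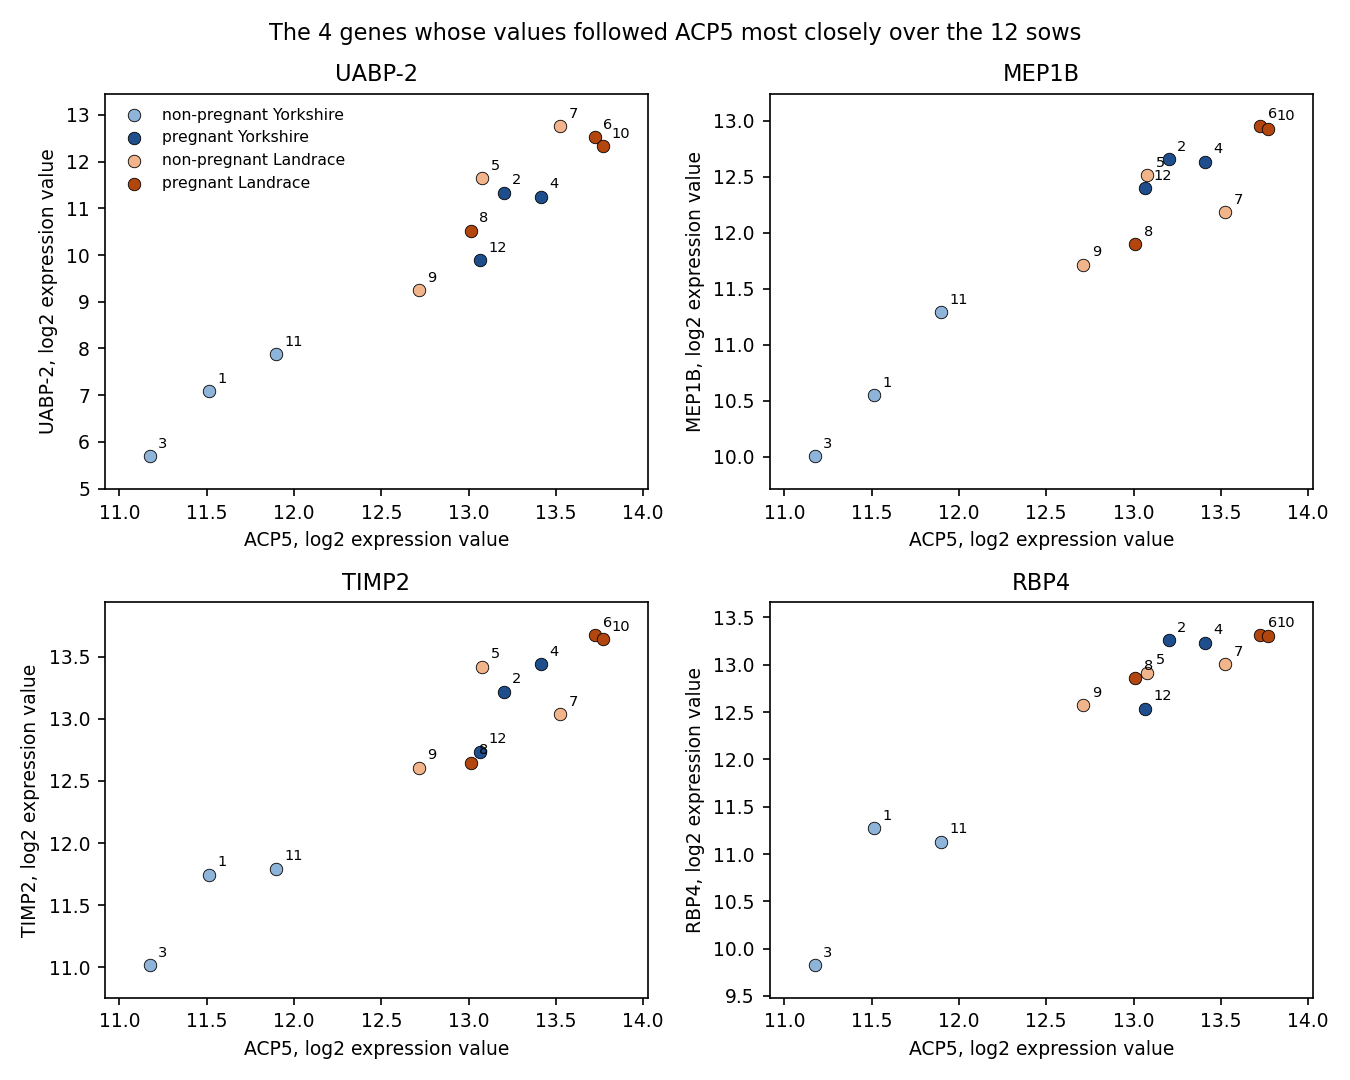
Log2 expression of UABP-2, MEP1B, TIMP2 and RBP4 (vertical axes) against that of ACP5 (horizontal axis), 1 point per sow with its number, coloured by group. The 3 non-pregnant Yorkshire sows form the lower left of each plot, and UABP-2 spans from 5.69 to 12.75 while ACP5 spans from 11.17 to 13.77.

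Among the 6 pregnant sows alone, where ACP5 varied from 13.01 to 13.77, it ran with APOA1 at r = 0.977 (exact permutation p = 0.00417, adjusted over 3 pairs 0.0125; Spearman's rho 0.943, exact permutation p = 0.0167). Without the 2 sows farthest from the median of ACP5 r was 0.983. Pregnant Landrace sows 6 and 10 were the highest for both, and sow 8, of the same breed, was the lowest. ACP5 and RBP4 had r = 0.757 (exact permutation p = 0.0833, adjusted 0.0833), and 0.736 without the 2 farthest sows. Their rho was 0.829 (exact permutation p = 0.0583, adjusted 0.0583). RBP4 and APOA1 had r = 0.794 (exact permutation p = 0.0542, adjusted 0.0813; rho 0.886, exact p = 0.0333), and 0.842 without them. The breeds hold 3 sows each here, too few for a correlation within breed. Over all 12 sows with the 4 group means subtracted, r was lower, at 0.705 for ACP5 and RBP4, 0.413 for ACP5 and APOA1 and 0.550 for RBP4 and APOA1. In non-pregnant Landrace sows ACP5 and APOA1 did not run together, since sow 7 was the highest of that group for ACP5 and the lowest for APOA1.

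Levels of other cells were measured beside the carriers. In flushed endometrium, the markers of glandular and luminal epithelium averaged 9.87 to 10.06 in non-pregnant and 9.44 to 10.07 in pregnant sows, with 2 of 12 higher and 2 lower in pregnant sows. These counts became 1 higher and 5 lower without sows 7 and 12, 0 higher with the trend and robust prior, and 0 to 3 each way on leaving out 1 sow. None of the 12 markers was below the lower quartile of the arrays in all sows. As background to the marker counts, 4.58% of the 6765 genes were higher and 7.48% lower in pregnant sows. Endothelial markers were higher in pregnant sows for 7 of 9 genes (median difference 0.65), stromal fibroblast markers for 4 of 8 with 1 lower, and smooth muscle markers for 1 of 8. On leaving out 1 sow, the counts of higher genes were 4 to 7, 2 to 4 and 0 to 2, in that order. Of T and NK cell markers (9 measured) and erythrocyte markers (4 measured) none was called in either direction. None of the 10 marker lists had a called member between the breeds in the non-pregnant state. In that comparison only 0.429% of all genes were higher and 0.798% lower in Landrace sows. The lack of calls therefore does not show an equal make-up of cells in the breeds. The part of the vascular and stromal shifts in the pregnancy differences of the carriers was not tested.

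ACP5 is also a gene of macrophages and osteoclasts. The 10 macrophage markers averaged 8.93 in non-pregnant Landrace sow 7, the highest of all sows. Their average was 6.87 to 7.02 in non-pregnant and 7.19 to 7.38 in pregnant Yorkshire sows, which did not overlap. In pregnant Landrace sows it was 7.19 to 7.62. No single marker of the 10 was called for pregnancy. ACP5 in sow 7 was 13.52, the highest of the non-pregnant sows. Without sow 7 the pregnancy difference of ACP5 was 1.21 (adjusted p = 0.0111), and the breed difference in non-pregnant sows was 1.37 (adjusted p = 0.0527). Non-pregnant Landrace sows 5 and 9, with ACP5 at 13.08 and 12.71, had macrophage averages of 6.96 and 6.98, within the 6.87 to 7.02 of the non-pregnant Yorkshire sows. Every pregnant sow had a higher macrophage average than sows 5 and 9. The part of macrophages in the pregnancy and breed differences of ACP5 was not tested. Of 6 osteoclast markers 1 was lower in pregnant sows, ATP6V0D2, a call kept in 4 of 12 fits with 1 sow left out. With the trend and robust prior it was not called. ITGB3 differed in the other direction, by 0.66 (adjusted p = 0.0517), and did not pass. The 6 markers averaged 5.93 to 6.52, and single ones lay from 4.18 to 4.53 (CALCR) up to 8.98 to 9.64 (CTSK).

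RBP4 and APOA1 are also liver transcripts, and RBP4 is made by the conceptus too. Of the 14 measured hepatocyte and plasma protein markers none was called, their average was 4.84 to 5.37, and FGB, APOA2, APOH and APOB lay below the lower quartile of the array in all 12 sows. Albumin (ALB), the most abundant liver product in plasma, was at 4.65 to 5.07. Other genes of the list were higher: TF was at 7.03 to 9.42, AHSG at 6.37 to 7.06 and HPX at 6.10 to 6.59. FGG reached 9.62 in pregnant sow 4, and HP reached 9.49 in non-pregnant sow 7. The part of these transcripts in the differences of RBP4 and APOA1 was not tested. The 14 conceptus markers averaged 6.82 in pregnant Landrace sow 10 and 5.05 to 5.54 in the other 11 sows. Of those 11, pregnant Landrace sow 6 had the highest average. In sow 10 IFNG, the interferon gamma of the pig trophoblast, was at 12.65 and the trophoblast gene PAG6 at 11.20. The next highest values, 8.21 and 5.92, were also in pregnant Landrace sows. In the other groups IFNG reached at most 4.41 and PAG6 at most 4.56. Without sow 10 the pregnancy differences were 1.06 for ACP5 (adjusted p = 0.0538), 1.37 for RBP4 (0.0690) and 0.51 for APOA1 (0.0830), about as large as with it. Sow 6 stayed in these fits, and the part of conceptus RNA in the differences was not tested.

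RBP4 delivers retinol to cells that store it or oxidise it to retinoic acid. Of 19 measured genes of retinoid handling 1 was higher and 1 lower in pregnant sows, with a median difference of -0.01, beside 4.58% higher, 7.48% lower and a median of -0.03 over all 6765 genes. The counts of this list, and of the lipoprotein, iron and steroid receptor lists, are within about 1 gene of those shares. Several of the genes named from them were called close to the threshold, and the number of fits that kept a call when 1 sow at a time was left out stands beside each. ALDH1A1, a retinaldehyde dehydrogenase that makes retinoic acid, rose by 0.65 ± 0.18 (adjusted p = 0.0478, kept in 3 of 12 fits), and its other probe set passed too. RDH11, a retinol dehydrogenase, fell by 0.68 ± 0.14 (adjusted p = 0.0152, kept in 12 of 12). Transthyretin (TTR), which binds RBP4 in plasma, was at 5.002 to 6.007 and differed by 0.02 (adjusted p = 0.956). CYP26A1, which breaks down retinoic acid and lies 4 genes from RBP4 in the gene order of Sscrofa11.1, differed by -1.65 ± 0.54 (adjusted p = 0.0819), the largest difference of this list, and did not pass.

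Of 27 measured apolipoprotein and lipoprotein genes 2 were higher and 2 lower in pregnant sows (median difference 0.05). Lipoprotein lipase (LPL) rose by 0.65 ± 0.17 (adjusted p = 0.0384, kept in 4 of 12 fits) and lysosomal acid lipase (LIPA) by 0.46 ± 0.12 (adjusted p = 0.0418, kept in 3 of 12). The dimmer probe set of each did not pass, at 0.35 for LPL (adjusted p = 0.0835) and 0.40 for LIPA (adjusted p = 0.251). ABCA1, which loads cholesterol onto APOA1, fell by 0.23 ± 0.06 (adjusted p = 0.0408, kept in 2 of 12), and APOO, a mitochondrial apolipoprotein, by 0.44 ± 0.09 (adjusted p = 0.0130, kept in 12 of 12). The receptor SCARB1, which takes cholesterol from high-density lipoprotein, differed by -0.01 (adjusted p = 0.982). APOC3 and APOA4, the neighbours of APOA1 in the same gene cluster, lay at 4.04 to 4.74 and 4.46 to 5.01, below the lower quartile of the array in 11 and 5 sows, and neither was called. No measured neighbour of ACP5 or RBP4 was called for pregnancy either.

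Of 20 measured iron genes 2 were higher and 1 lower in pregnant sows (median difference 0.13). SLC11A2, a membrane importer of ferrous iron, rose by 1.51 ± 0.34 on its brightest probe set (adjusted p = 0.0209, kept in 7 of 12 fits), and the other 3 probe sets, all dimmer, did not pass. FTH1, the ferritin heavy chain that stores iron, rose by 0.33 ± 0.09 (adjusted p = 0.0376, kept in 3 of 12). ACO1, the cytosolic aconitase that becomes an iron-responsive RNA binding protein when iron is scarce, fell by 0.41 ± 0.08 (adjusted p = 0.0124, kept in 12 of 12), and all 3 of its probe sets passed. The transferrin receptor TFRC differed by 0.80 ± 0.31 (adjusted p = 0.140) and the ferric reductase gene STEAP1 by 1.57 ± 0.51 (adjusted p = 0.0821), and neither passed; this pair was named after its values were seen.

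Uteroferrin carries mannose 6-phosphate, the tag of lysosomal enzymes. Of 24 measured genes for acid phosphatases, tagging and lysosomal enzymes 3 were higher and 0 lower in pregnant sows (median difference 0.11). By the same rule 4.58% of all genes were higher and 7.48% lower. Among the other acid phosphatases, ACP2 and ACP6 differed by 0.11 and 0.07 and did not pass. GNPTAB, a subunit of the enzyme that adds the tag, rose by 0.82 ± 0.12 (adjusted p = 0.00584) and passed whichever sow was left out. HEXA and CTSD, a lysosomal hexosaminidase and the protease cathepsin D, each rose by 0.31 (adjusted p = 0.0237 and 0.0364), calls kept in 7 and 4 of 12 fits. The tag receptors IGF2R and M6PR differed by 0.20 (adjusted p = 0.104) and -0.31 (adjusted p = 0.0720).

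Among 42 other secreted proteins of the uterine lumen 5 were higher and 1 lower in pregnant sows (median difference 0.03). The shares over all genes were 4.58% higher and 7.48% lower. IGFBP2, a binding protein of insulin-like growth factors, rose by 2.17 ± 0.27 (adjusted p = 0.00342), fibronectin (FN1) by 0.76 ± 0.16 (adjusted p = 0.0177), IGF2 by 0.37 ± 0.08 (adjusted p = 0.0170) and the protease inhibitor CST6 by 0.85 ± 0.22 (adjusted p = 0.0340). Leaving out 1 sow at a time kept the calls of IGFBP2, FN1 and IGF2 in 12 of 12 fits and that of CST6 in 4. Of the several probe sets, 1 of 4 passed for FN1 and 6 of 13 for IGF2. The fifth was SPINT2 (0.29, kept in 3 of 12, and its dimmer probe set did not pass), and the 1 lower was LGALS3, a galectin (-0.57, kept in 1 of 12). In the non-pregnant state 2 of these genes were higher in Landrace sows, UABP-2 (4.33 ± 0.87, adjusted p = 0.0447, kept in 3 of 12 fits) and the cytokine LIF (2.80 ± 0.44, adjusted p = 0.0156, kept in 8), and TIMP3 was lower (-0.86 ± 0.15, adjusted p = 0.0208, kept in 7). Between the breeds in that state 0.429% of all genes were higher and 0.798% lower in Landrace sows. UABP-2 is described above for its likeness to ACP5, which already reflects this pattern. Pregnant minus non-pregnant LIF was 1.21 ± 0.44 within Yorkshire (adjusted p = 0.229) and -1.24 ± 0.44 within Landrace (adjusted p = 0.205), and these opposite differences average to -0.01 over both breeds.

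Of 16 measured steroid receptor and gland regulator genes 1 was higher and 1 lower in pregnant sows (median difference 0.10), and without sows 7 and 12 the count of lower genes was 4. KLF9, a progesterone-responsive transcription factor, rose by 0.85 ± 0.20 (adjusted p = 0.0226, kept in 9 of 12 fits; its dimmer probe set did not pass), and the oestrogen receptor ESR1 fell by 0.58 ± 0.14 (adjusted p = 0.0257, kept in 7 of 12). The progesterone receptor PGR differed by -0.11 (adjusted p = 0.398) and the gland transcription factor FOXA2 by -0.55 (adjusted p = 0.0828). None of the 16 was called between the breeds in the non-pregnant state, where 0.429% of all genes were higher and 0.798% lower in Landrace sows. At shares this small, the lack of a call among 16 genes does not show that they were alike between the breeds.

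**Figure D4:**
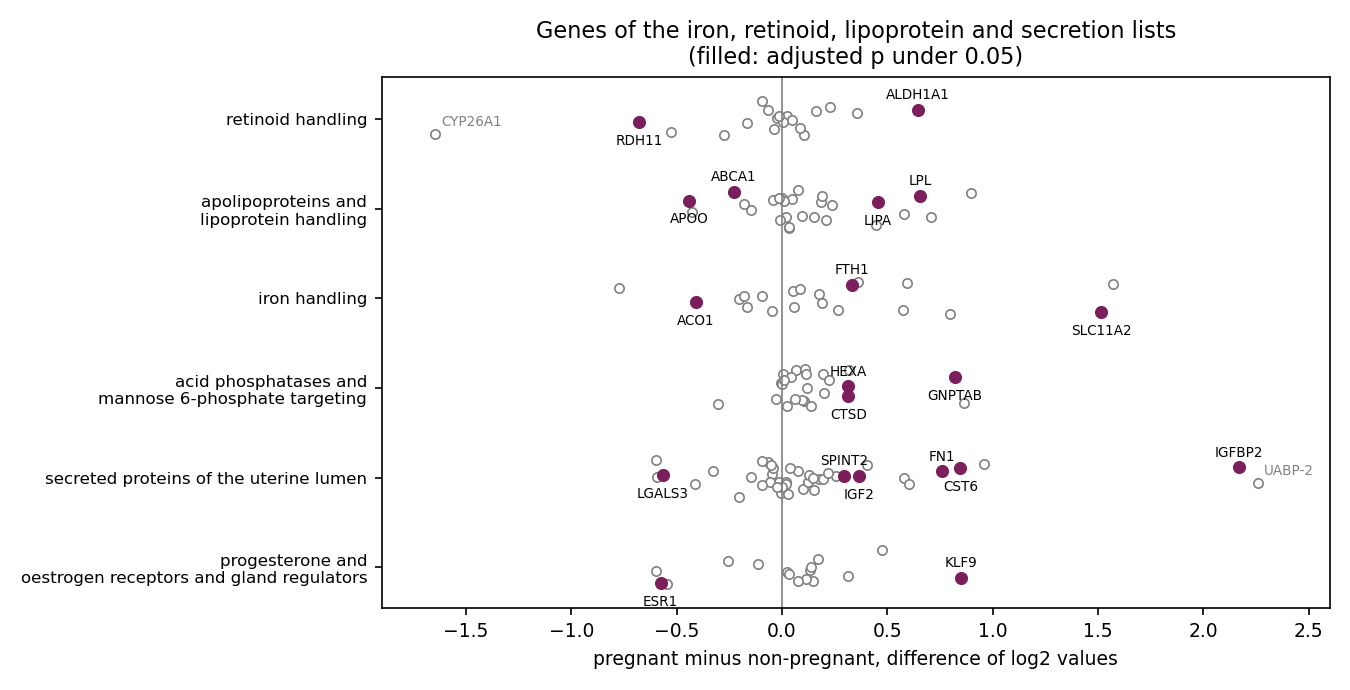
Pregnant minus non-pregnant difference of log2 values (horizontal axis) of each measured gene of 6 gene lists (vertical axis, points spread within a list for legibility); filled points have an adjusted p under 0.05 and are named. UABP-2 and CYP26A1 are named in grey and did not pass.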

How the data were processed

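The deposited values were log2 expression values per probe set, 1 column per sow. The submitters' processing notes list RMA, affy and limma and give no versions. RMA makes the intensity distributions of arrays alike, so a difference is relative to the other probe sets, and low values are mostly background. The table held 24123 probe sets; 124 manufacturer controls were left out. Platform annotation gave 1 symbol to 10069 probe sets, several to 198 and none to 13732.

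The tests were two-sided moderated tests of limma 3.58.1 (functions lmFit and eBayes, R 4.3.3). P-values were adjusted by Benjamini-Hochberg over 23999 probe sets, and 0.05 was the threshold. Pregnancy and breed came from an additive fit with 9 residual degrees of freedom, and all other contrasts from a fit of the 4 groups with 8. The probe set with the highest mean stood for a gene. The members, the 6 gene lists and the 10 marker lists were chosen with earlier results of these data known. Named were the members, up to 4 called members of each gene list with the smallest p, and the 5 genes with the highest r to each member. Further genes (such as TTR, PGR, FOXA2, SCARB1, CYP26A1, IGF2R and M6PR) were named for their role or from a small count, after their values were seen. The promoters of the members were not analysed here.

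Each sow is 1 replicate, so precision is limited by the 12 arrays. The procedure was tested on simulated data. Alternatives were the mean of RBP4's probe sets, leaving out each sow, a fit with array weights, a prior with trend and robust settings, omission of the breed term, averaging the contrasts within breeds, cyclic loess, median centring and a filter that kept probe sets brighter than the overall median on 3 or more arrays. Sows 7 and 12 were also left out together, because earlier work on these data had described their arrays as apart.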

Additional observations from a re-analysis of the deposited data

Results flagged for a closer look

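The dim probe set of RBP4 was at 6.58 in non-pregnant Landrace sow 7, far above the other 5 non-pregnant sows (5.36 to 5.58) relative to their range. Chance flags about 1 in 20 groups in this way. In sow 7 the bright RBP4 probe set, at 13.01, was not set apart from the other Landrace sows.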

How the results depend on the processing

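The pregnancy difference kept its sign under every alternative run for ACP5, RBP4's bright probe set and APOA1. With 1 sow left out it missed the threshold in 7 of 12 fits for ACP5, 10 for RBP4 and 8 for APOA1. It also missed the threshold under the alternatives that follow. With no breed term it was 1.05 for ACP5 (adjusted p = 0.114), 1.30 for RBP4 (0.134) and 0.516 for APOA1 (0.0821). RBP4 also missed the threshold with the trend and robust prior, at 1.30 (0.0638), and as the mean of its probe sets, at 0.667 (0.108). APOA1 missed it with median centring, at 0.498 (0.0506), as the average of the within-breed contrasts, at 0.516 (0.0504), and without sows 7 and 12, at 0.461 (0.0724). Array weights brought the within-Yorkshire differences past the threshold, at 1.87 for ACP5, 2.77 for RBP4 and 0.776 for APOA1. The calls of that fit over all probe sets were not counted. The cause of these changes was not tested.

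Leaving out 1 sow at a time, the pregnancy difference ranged from 0.897 to 1.23 for ACP5, 0.986 to 1.47 for RBP4 and 0.440 to 0.604 for APOA1. Within Yorkshire it ranged from 1.52 to 1.88 for ACP5 and 1.81 to 2.53 for RBP4. The breed difference in non-pregnant sows ranged from 1.37 to 1.77 and from 1.63 to 2.35, and that of RBP4 in pregnant sows from -0.0863 to 0.302. The dim RBP4 probe set changed sign in several fits, none of them called: pregnancy -0.0421 to 0.229, within Landrace -0.372 to 0.237 (0.0902 with array weights), interaction -0.594 to 0.0153, breed -0.0479 to 0.223, breed in non-pregnant sows -0.0564 to 0.553 and in pregnant sows -0.156 to 0.0441. Without sows 7 and 12 its pregnancy difference was 0.287 (adjusted p = 0.0323). List counts moved by up to a few genes: leaving out 1 sow, 0 to 4 iron genes, 1 to 6 phosphatase and tagging genes and 3 to 7 secreted proteins were higher in pregnant sows.

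No paired analysis was possible because the labels give the groups no shared replicate numbers. The numbers of arrays limit the precision, and signals near background understate differences of dim probe sets.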
